A study of Mus musculus with 18 samples.

Results

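The 80 genes described here encode subunits of the mitochondrial oxidative phosphorylation system, measured in microglia, the resident macrophages of the brain. They were taken from the 22180 genes of the arrays by their symbols: a gene entered if its symbol named a nuclear-encoded subunit of complexes I to V or cytochrome c and if it had a probe set annotated with that symbol alone. Each gene was represented by its brightest probe set over the 18 arrays, and symbols of pseudogenes (2) were left out. The 80 genes comprised 33 of complex I, 4 of complex II, 8 of complex III, the mobile carrier Cycs, 17 of complex IV and 17 of complex V. Ndufa4 was counted with complex I by its symbol, although the protein is now assigned to complex IV, and so was its paralogue Ndufa4l2. Other subunit genes, such as Cox6c, Ndufb4 and Uqcr10, were not analysed here.

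Microglia were sorted from untreated, healthy C57Bl/6 mice kept free of specific pathogens, after a Percoll gradient, by surface CD45 and CD11b and the absence of Gr1. The 6 groups of 3 arrays were cortex and corpus callosum microglia at postnatal day 3 (P3), postnatal day 7 (P7) and in adulthood, where the labels give no exact age. No group carried a transgene or a treatment. How many animals gave the cells of an array is not stated, so the p-values measure only the spread between these samples, which may be technical. The 6 measured microglia markers had mean levels of 10.70 to 11.59 log2 units on every array, against 5.47 to 6.90 for the 8 neuron markers. Both adult replicate 1 arrays stood slightly apart, with mean correlations of 0.956 (cortex) and 0.953 (corpus callosum) to the rest. P3 arrays differ from all later arrays in the prefix of their labels, so age and array set cannot be told apart between P3 and the later ages.

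Oxidative phosphorylation passes electrons from NADH through complex I, or from succinate through complex II, to ubiquinone, then through complex III, cytochrome c and complex IV to oxygen. Complexes I, III and IV pump protons across the inner mitochondrial membrane, and complex V, the ATP synthase, makes ATP as the protons flow back. All of these complexes except complex II combine subunits encoded in the nucleus with subunits encoded in mitochondrial DNA. Microglia can use both glycolysis and oxidative phosphorylation, and resting microglia of the adult brain are generally described as relying on the latter.

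Many of the subunit genes were lower in adult microglia than at P7 in both regions, and none was higher. In cortex 32 of the 80 genes were lower and 0 higher (limma, adjusted p under 0.05), while 6.15% of all 22180 genes were lower and 4.05% higher. In corpus callosum 57 were lower and 0 higher, against 10.7% of all genes that were lower and 6.56% that were higher. The median difference over the 80 genes, adult minus P7, was -0.37 log2 units in cortex and -0.75 in corpus callosum, while the medians of all genes were 0.03 and 0.05. In either region 75 of the 80 differences lay below 0. The 3 adult arrays lay entirely below the 3 P7 arrays for 49 genes in cortex (13.7% of all genes did so) and for 69 in corpus callosum (17% of all genes).

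The same fall was visible on each array. When each gene was set against its own mean over all 18 arrays, the 80 genes averaged 0.02 to 0.13 log2 units above their means on the cortex arrays at P7 and 0.20 to 0.36 above on those of corpus callosum. The adult cortex arrays lay at -0.29, -0.29 and -0.28, and the adult corpus callosum arrays at -0.52, -0.45 and -0.34. At P3 they ranged over 0.05 to 0.14 for cortex and 0.24 to 0.27 for corpus callosum. Every adult array lay below every array of P3 and P7, and within both young ages the corpus callosum arrays lay above those of cortex, an order that was turned in adults. On an adult array at most 9 of the 80 genes exceeded their own mean, against at least 47 on a P7 array.

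**Figure D1:**
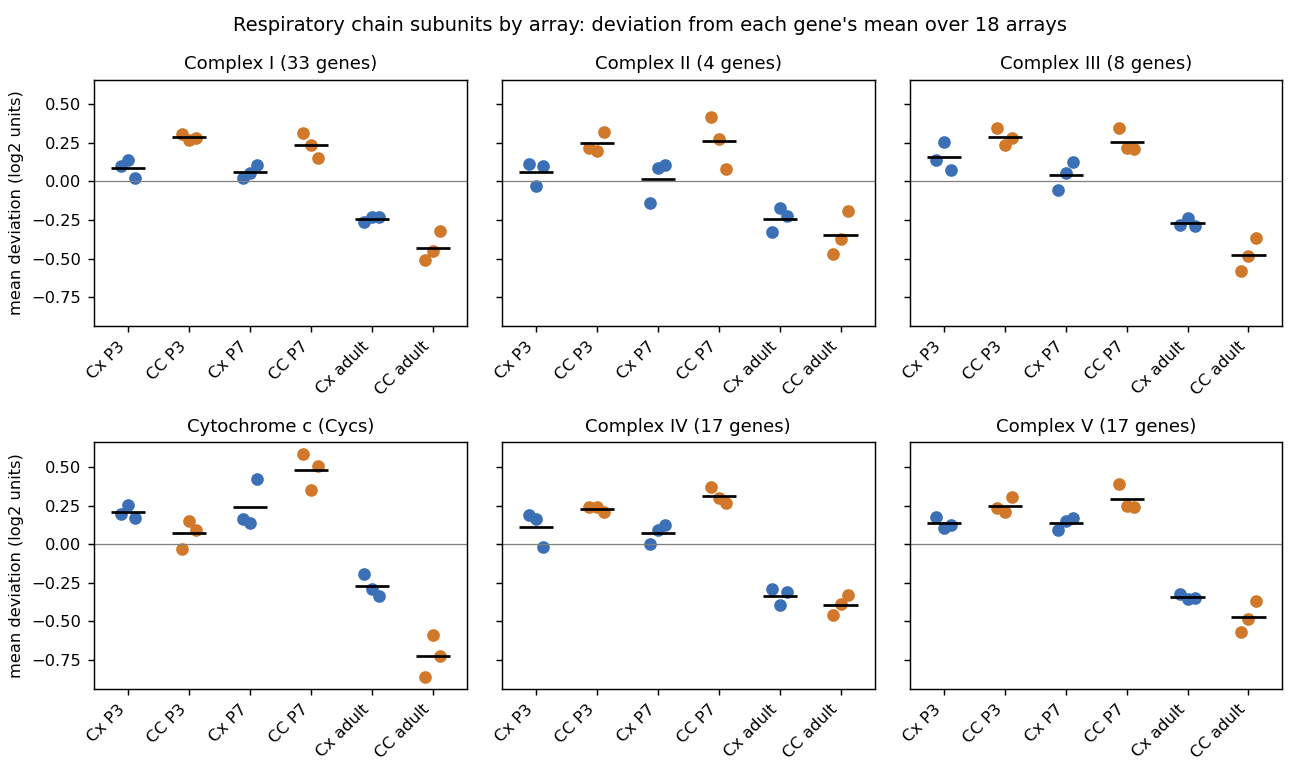
Mean deviation of the genes of each complex from their own means over 18 arrays (log2 units, vertical axis) for each array (points) in cortex (Cx, blue) and corpus callosum (CC, orange) at P3, P7 and in adults; bars are group means of 3 arrays. In every panel the adult points lie below all points of P3 and P7, with complex V at -0.36 to -0.32 in adult cortex and -0.57 to -0.37 in adult corpus callosum.

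All 32 genes that fell in cortex were among the 57 that fell in corpus callosum, and 25 fell in corpus callosum without being called in cortex. The groups compared share no arrays, but both comparisons took the spread of each gene from the same fit of all arrays. The overlap of their calls is therefore not independent. The remaining 23 genes were called in neither region. For 73 of the 80 genes the corpus callosum difference was the lower of the pair. Over the alternative settings the number of genes called lower ranged from 23 to 42 for cortex and from 50 to 62 for corpus callosum. The subunit genes are mostly bright on these arrays, and bright genes were called lower in larger shares: of the 5545 genes in the upper quartile of level, which hold 66 of the 80, 15.4% were lower in adult cortex and 28.1% in adult corpus callosum, with medians of -0.04 and -0.14. This split by level was chosen after the values had been seen. Whether fewer cells of a type or less RNA per cell lies behind a lower value cannot be told apart in such sorted bulk samples.

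**Figure D2:**
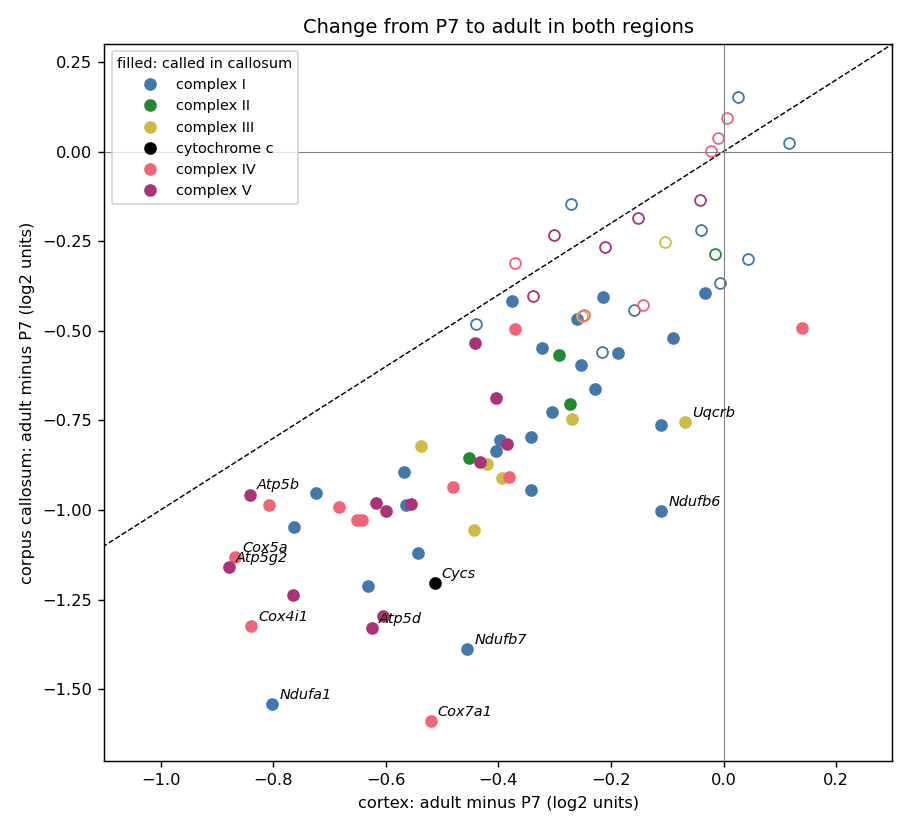
Adult minus P7 difference of each of the 80 genes in cortex (horizontal axis) and in corpus callosum (vertical axis), in log2 units; filled circles were called in corpus callosum, colours mark the complex and the dashed line marks equal differences. Most circles lie below the dashed line, with Cox7a1 at -0.52 and -1.59 and Ndufa1 at -0.80 and -1.54.

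Markers of other cells also moved with age in these samples. Of all genes, 4.05% were higher and 6.15% lower in adult cortex, and 6.56% and 10.7% in adult corpus callosum. In the upper quartile of level these shares were 8.82% and 15.4% in cortex, and 11.3% and 28.1% in corpus callosum. Of 6 markers of border macrophages (the macrophages of meninges and vessels), 3 were lower in adult cortex and 4 in adult corpus callosum. Their mean level went from 6.71 to 7.14 on the cortex arrays at P7 to 5.40 to 5.49 in adults, and from 7.08 to 7.32 to 5.48 to 5.56 in corpus callosum, with Cd163 below the array median throughout. Of 8 neuron markers, 4 were lower in adult cortex (array means of 6.06 to 6.15 at P7 and 5.47 to 5.63 in adults) and 0 in adult corpus callosum (5.84 to 5.95 and 5.58 to 5.77). Of 6 microglia markers 3 were higher in adult cortex and 4 in adult corpus callosum. Smaller numbers changed among markers of astrocytes (2 higher in cortex and 1 in corpus callosum, of 6), endothelial or mural cells (1 higher in cortex, of 6), monocytes (1 higher and 2 lower in cortex, 1 higher and 1 lower in corpus callosum, of 6) and oligodendrocytes (1 lower in corpus callosum, of 5). None was called among markers of neutrophils, lymphocytes, oligodendrocyte precursors or red cells. However, 4 of 7 neutrophil and 4 of 5 lymphocyte markers were below the array median on every array. Of 5 red cell genes listed, 1 was measured. A change in those cells could therefore be missed. The part of these markers in the fall of the subunit genes was not tested.

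The letters of the subunit genes' promoters were searched for motifs of factors known to act on respiratory chain genes. RefSeq promoters on GRCm38.p6, 250 bases before to 50 after a start, were held for 65 of the 80 genes (70 promoters) and for 27025 genes in all (32851 promoters). The NRF1 motif, whose letters are the capitals of the Ndufa11 stretch printed here, was found on either strand in 7.14% of the subunit promoters (5 of 70) and in 0.971% of all promoters. With the sixth of its letters free, which includes every promoter with the full motif, it was found in 22.9% and 4.6%. The ETS motif CCGGAAG, which GABPA binds, was found in 24.3% of the subunit promoters and 8.86% of all. The long form of the YY1 motif was found in 4.29% and 0.633%, the ERR motif AAGGTCA in 8.57% and 4.72%, and the SP1 motif GGGCGG in 41.4% and 35.7%. Among promoters of protein-coding genes alone the shares were 1.33% for NRF1, 6.38% for its free form, 11.6% for ETS, 0.889% for YY1 and 4.08% for ERR, all below those of the subunit promoters, and 46.2% for SP1, which was above. The NRF1 motif was in 10% (5 of 50) of promoters of genes called lower in adult corpus callosum. It was in 0% (0 of 20) of promoters of genes not called there, numbers too small to show a contrast. For its free form these shares were 20% and 30%, for ETS 28% and 15%, and for YY1 2% and 10%. They were 8% and 10% for ERR and 44% and 35% for SP1. The part of these motifs in the fall was not tested. Letters that match a motif describe a promoter and do not show that a factor binds there. For complexes I, II, IV and V, the stretches that follow give, 5′ to 3′ on the gene's strand, the 120 bases before the start for the gene with the largest fall in corpus callosum among called genes whose 120 bases hold the free form, which is in capitals; no called gene of complex III holds it there:
Ndufa11, chr17:56717642-56717761, plus strand: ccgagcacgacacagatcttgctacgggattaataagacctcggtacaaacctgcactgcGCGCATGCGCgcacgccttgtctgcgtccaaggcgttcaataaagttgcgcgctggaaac
Sdhd, chr9:50603850-50603969, minus strand: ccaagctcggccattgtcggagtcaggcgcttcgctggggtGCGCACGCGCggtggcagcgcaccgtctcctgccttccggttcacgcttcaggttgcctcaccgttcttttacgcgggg
Cox6a1, chr5:115348959-115349078, minus strand: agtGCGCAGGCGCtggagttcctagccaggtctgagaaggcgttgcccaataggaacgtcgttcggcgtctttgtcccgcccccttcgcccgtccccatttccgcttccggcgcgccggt
Atp5g2, chr15:102671048-102671167, minus strand: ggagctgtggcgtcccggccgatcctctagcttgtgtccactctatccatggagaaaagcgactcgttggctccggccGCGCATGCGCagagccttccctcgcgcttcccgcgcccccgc

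In complex I, which takes electrons from NADH, 9 of 33 genes were lower in adult cortex and 24 of 33 in adult corpus callosum, with medians of -0.27 and -0.60. Of the 9 cortex calls, 6 were kept without P7 replicate 1 or adult replicate 2, those of Ndufa13, Ndufb7 and Ndufb9 being lost. Ndufa1, an X-linked accessory subunit of the membrane arm, had the largest fall of the complex in both regions. Its levels in cortex were 9.79, 9.82 and 10.002 at P7 and 9.15, 9.01 and 9.04 in adults, and in corpus callosum 10.57, 10.28 and 10.22 at P7 and 8.58, 8.97 and 8.89 in adults. The groups did not overlap, and the difference was -0.80 ± 0.13 (SE, n = 3 arrays per group here and below, adjusted p = 0.000311) in cortex and -1.54 ± 0.13 (adjusted p = 1.17e-07), or 2.91-fold, in corpus callosum. Ndufb7, an accessory subunit that faces the intermembrane space, read 8.81, 8.65 and 8.70 in P7 cortex and 8.48, 8.19 and 8.12 in adult cortex. In corpus callosum it read 9.33, 8.94 and 8.88 at P7 and 7.68, 7.59 and 7.71 in adults, a wide gap beside the narrow one of cortex. Its fall was -1.39 ± 0.13 (adjusted p = 4.18e-07) in corpus callosum and -0.46 ± 0.13 (adjusted p = 0.0283) in cortex, where the call was lost without any one of the 3 P7 arrays or of adult replicates 2 and 3 (adjusted p of 0.0545 to 0.134), in the fit of these groups alone (0.0672) and after a further quantile normalization (0.0968). Ndufa2, an accessory subunit of the matrix arm, differed by -0.63 ± 0.14 in cortex and -1.21 ± 0.14 in corpus callosum, and Ndufb9, of the membrane arm, by -1.12 ± 0.15 in corpus callosum (adjusted p of 0.00576, 6.45e-06 and 2.87e-05). Ndufa11, whose promoter is printed above, differed by -0.76 ± 0.17 in cortex and -1.05 ± 0.17 in corpus callosum, and Ndufa4 by -0.72 ± 0.11 and -0.95 ± 0.11.

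The core subunits of complex I, which carry the flavin, the iron-sulphur clusters and the ubiquinone site, are described apart from the accessory ones. Of 6 core genes measured, 0 were called in cortex and 3 in corpus callosum (medians of -0.26 and -0.42), while of 25 accessory genes 8 and 20 were called (medians of -0.34 and -0.76); this division was made with results known and was not tested. Ndufs1, the large iron-sulphur subunit, read 7.67, 7.61 and 7.68 in P7 cortex and 7.05, 7.50 and 7.43 in adult cortex, where replicate 1 was the lowest. Its corpus callosum levels were 7.73, 7.65 and 7.68 at P7 and 7.05, 7.07 and 7.29 in adults, and the difference was -0.55 ± 0.12 (adjusted p = 0.00382). Ndufs8 (-0.60 ± 0.14) and Ndufv2 (-0.47 ± 0.14), both of which hold iron-sulphur clusters, also fell in corpus callosum. The call of Ndufv2 was lost without corpus callosum replicate 1 of P7 or replicate 1 or 3 of the adults (adjusted p of 0.119, 0.0794 and 0.0797), in the fit of these groups alone (0.0554) and after a further quantile normalization (0.171). Ndufv1, which binds NADH and the flavin, differed by -0.27 ± 0.12 and -0.15 ± 0.12 in cortex and corpus callosum, Ndufs3 by -0.01 ± 0.13 and -0.37 ± 0.13, and Ndufs7 by 0.04 ± 0.12 and -0.30 ± 0.12, none of them called. Ndufa6, another accessory subunit, was called in neither region.

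Complex II, succinate dehydrogenase, links the tricarboxylic acid cycle to the chain and is wholly encoded in the nucleus. In cortex 0 of its 4 genes were called and in corpus callosum 3. Sdhc, a membrane anchor, read 7.76, 8.18 and 8.04 in P7 cortex and 7.37, 7.72 and 7.54 in adult cortex (-0.45 ± 0.14, adjusted p = 0.051), groups that did not overlap. The corpus callosum arrays gave 8.59, 8.49 and 8.27 at P7 and 7.42, 7.58 and 7.77 in adults (-0.86 ± 0.14, adjusted p = 0.000266). Sdhd, the other anchor, fell by 0.70 ± 0.20 in corpus callosum (adjusted p = 0.0167), but its call was lost without P7 replicate 1 (0.0954) or adult replicate 1 (0.102). Sdha, the flavoprotein that oxidises succinate, fell by 0.57 ± 0.14 (adjusted p = 0.00672). Sdhb, the iron-sulphur subunit, differed by -0.02 ± 0.12 in cortex and -0.29 ± 0.12 in corpus callosum and was called in neither.

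Complex III passes electrons from ubiquinol to cytochrome c. Of its 8 genes 3 were lower in adult cortex and 6 in adult corpus callosum, and all 8 differences lay below 0 in both regions. Uqcr11, a small membrane subunit, read 7.90, 7.90 and 7.92 in P7 cortex and 7.31, 7.56 and 7.52 in adult cortex. Levels in corpus callosum were 8.43, 8.33 and 8.17 at P7 and 7.41, 7.26 and 7.08 in adults, with a difference of -1.06 ± 0.12 (adjusted p = 7.32e-06). Uqcrq, another small membrane subunit, differed by -0.91 ± 0.15 in corpus callosum and Uqcrh, the hinge subunit, by -0.87 ± 0.13. Uqcrc1, a core subunit of the matrix side, differed by -0.82 ± 0.14 in corpus callosum and -0.54 ± 0.14 in cortex. The cortex calls of this complex were less stable: Uqcrc1 (adjusted p = 0.0178) was lost without P7 replicate 3 (0.08) or adult replicate 1 (0.0893), Uqcr11 (0.0276) without any one of the 6 arrays except adult replicate 2 (0.0531 to 0.118), and Uqcrh (0.0481) without any one of them except adult replicate 1 (0.0677 to 0.217). After a further quantile normalization Uqcr11 (0.0886) and Uqcrh (0.14) were not called in cortex, nor was Uqcrh in the fit of these groups alone (0.0772). Of the subunits that carry the redox groups, the Rieske protein Uqcrfs1 fell in corpus callosum (-0.75 ± 0.13, adjusted p = 0.000474), whereas cytochrome c1, Cyc1, differed by -0.25 ± 0.16 in cortex and -0.46 ± 0.16 in corpus callosum (adjusted p = 0.0522) and was not called. The core subunit Uqcrc2 differed by -0.10 ± 0.11 and -0.25 ± 0.11 and was not called.

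Cycs, cytochrome c, carries electrons from complex III to complex IV and also takes part in apoptosis. It read 9.80, 9.78 and 10.06 in P7 cortex and 9.45, 9.35 and 9.31 in adult cortex. For corpus callosum the values were 10.23, 9.99 and 10.15 at P7 and 8.78, 9.05 and 8.92 in adults. The fall was 0.51 ± 0.12 in cortex (adjusted p = 0.00569) and 1.20 ± 0.12 in corpus callosum (adjusted p = 5.93e-07), or 2.31-fold. Of its 4 other probe sets, all lower in adult corpus callosum (-1.38 to -0.86), 1 was lower in cortex as well (-0.91 ± 0.21, adjusted p over all probe sets 0.00625). The other 3 did not pass in cortex: 1 gave -0.23 and a pair with identical values 0.22. The mean of all 5 gave -0.24 in cortex (adjusted p = 0.41).

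**Figure D3:**
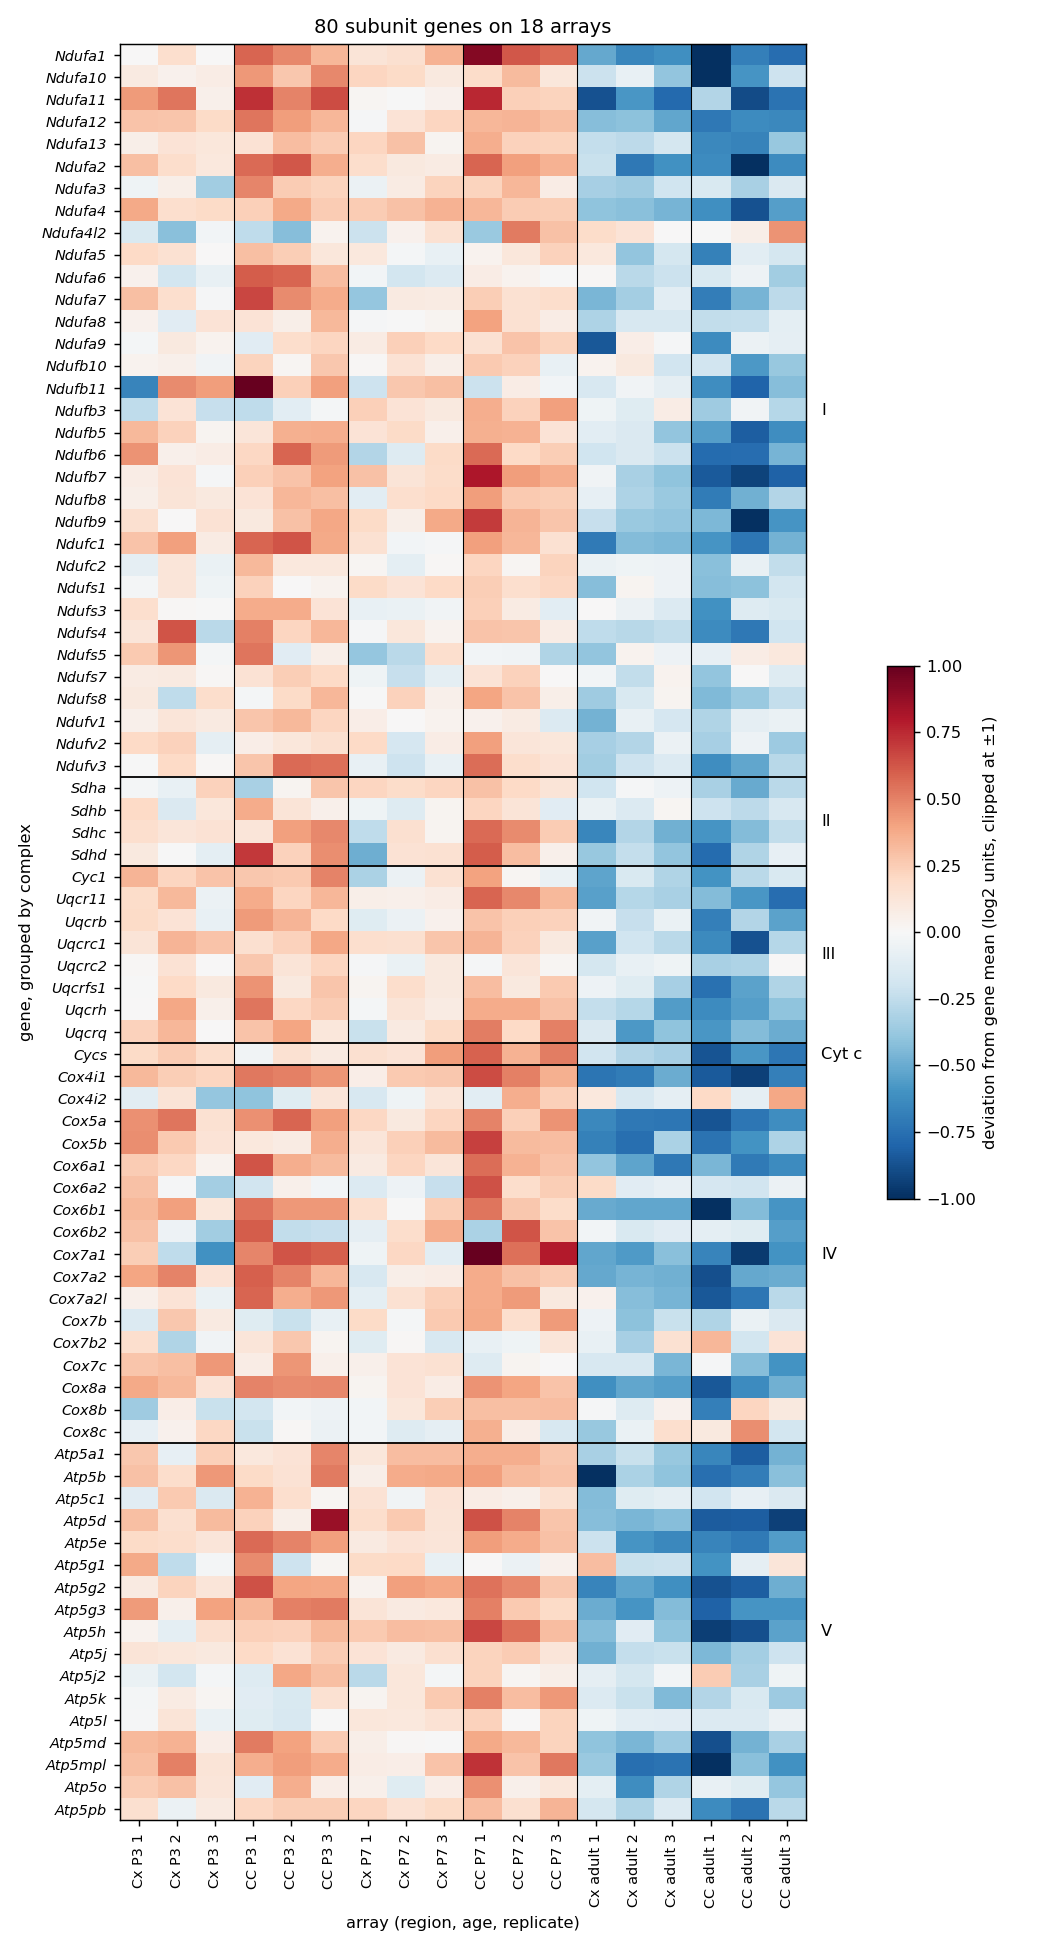
Deviation of each of the 80 genes (rows, ordered by complex) from its own mean over the 18 arrays (columns, by region, age and replicate), in log2 units clipped at 1 in either direction. Red is above and blue below the gene's mean. The 6 adult columns on the right are mostly blue, and the dim genes Ndufa4l2, Cox7b2 and Cox8c show no such block. Cox8b, also dim, was lower in adults than at P7 in both regions without being called.

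Complex IV, cytochrome c oxidase, reduces oxygen, and several of its nuclear subunits exist as a form of most tissues and a form typical of particular tissues such as muscle, lung or testis. The forms of most tissues fell: 7 of 9 were called in cortex and 8 of 9 in corpus callosum, with medians of -0.65 and -0.99, and Cox7c was called in neither. Cox4i1, needed for assembly of the enzyme, read 10.58, 10.79 and 10.79 in P7 cortex and 9.79, 9.82 and 10.03 in adult cortex. In corpus callosum it read 11.18, 11.03 and 10.88 at P7 and 9.68, 9.59 and 9.84 in adults, and the groups did not overlap. Its difference was -0.84 ± 0.11 (adjusted p = 5.34e-05) in cortex and -1.32 ± 0.11 (adjusted p = 1.76e-07) in corpus callosum. Cox5a read 9.64, 9.53 and 9.64 at P7 and 8.78, 8.72 and 8.70 in adults in cortex, the largest fall of the complex there (-0.87 ± 0.12, adjusted p = 5.49e-05), and differed by -1.13 ± 0.12 in corpus callosum. Cox5b, its neighbour in the enzyme on the matrix side, differed by -0.81 ± 0.15 and -0.99 ± 0.15. Cox6a1 (-0.68 ± 0.13 and -0.99 ± 0.13), Cox6b1 (-0.65 ± 0.15 and -1.03 ± 0.15) and Cox8a (-0.64 ± 0.11 and -1.03 ± 0.11) were lower in both regions. Cox7a2 fell by 0.94 ± 0.13 in corpus callosum and by 0.48 ± 0.13 in cortex, where its call (adjusted p = 0.021) was lost without P7 replicate 2 or 3 (0.0899 and 0.0969) or any one adult array (0.0542 to 0.0585).

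Of the 7 forms of particular tissues, 0 were called in cortex and 2 in corpus callosum. Cox7a1, the form typical of heart and skeletal muscle, had the largest fall of all 80 genes in corpus callosum. It read 7.26, 6.62 and 6.86 there at P7 and 5.40, 5.11 and 5.47 in adults (-1.59 ± 0.19, adjusted p = 7.09e-06, or 3.01-fold). In cortex it read 6.02, 6.27 and 5.96 at P7 and 5.55, 5.50 and 5.65 in adults (-0.52 ± 0.19, adjusted p = 0.0976). The adult values lay near or below the array medians of 5.58 to 5.74, where the size of a fold is uncertain. Cox6a2, the muscle form of Cox6a1, differed by -0.49 ± 0.16 in corpus callosum (adjusted p = 0.0349), a call lost without P7 replicate 1 (0.185) or any one adult array (0.0502 to 0.0972), in the fit of these groups alone (0.052) and after a further quantile normalization (0.151). It differed by 0.14 ± 0.16 in cortex, where it was not called. Cox4i2, the lung form and partner of Cox4i1, read 5.64, 5.76 and 5.92 in P7 cortex and 5.91, 5.64 and 5.71 in adult cortex, groups that overlapped (-0.02 ± 0.17), and differed by 0.00 ± 0.17 in corpus callosum. Cox6b2 differed by -0.25 ± 0.24 and -0.46 ± 0.24, Cox8b by -0.14 ± 0.18 and -0.43 ± 0.18, and Cox8c by -0.01 ± 0.17 and 0.04 ± 0.17. Cox7b2, Cox8b, Cox8c and, in complex I, Ndufa4l2 were below the array median on all 18 arrays, so the differences of these 4 genes cannot be told from background. Cox7a2l, which takes part in supercomplexes of the chain, differed by -0.38 ± 0.16 in cortex (adjusted p = 0.185) and -0.91 ± 0.16 in corpus callosum (adjusted p = 0.000579).

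**Figure D4:**
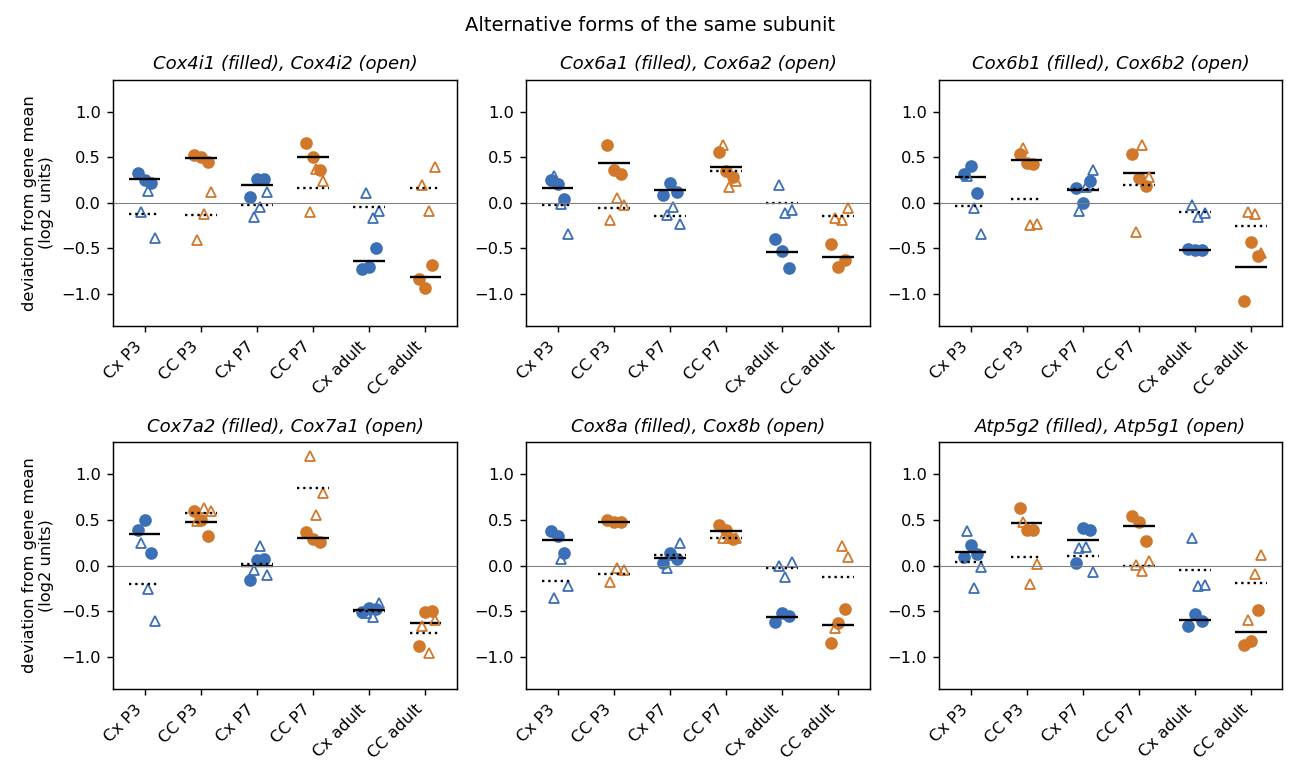
Deviation from each gene's own mean over 18 arrays (log2 units) for 6 pairs of genes that encode forms of the same subunit; filled circles and solid bars are the first gene and its group means, open triangles and dotted bars the second, in cortex (Cx, blue) and corpus callosum (CC, orange). Cox4i1, Cox6a1, Cox6b1, Cox7a2, Cox8a and Atp5g2 fall in adults, and of their partners only Cox7a1 (-1.59) and Cox6a2 (-0.49) were called, both in corpus callosum.

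Complex V, the ATP synthase, had 12 of 17 genes lower in adult cortex and the same number in adult corpus callosum, and all 17 differences lay below 0 in both regions. In the catalytic head and central stalk, 4 of 5 genes fell in both regions. Atp5b, the catalytic beta subunit, read 10.15, 10.46 and 10.47 in P7 cortex and 9.09, 9.77 and 9.68 in adult cortex (-0.84 ± 0.17, adjusted p = 0.00192). Its corpus callosum levels were 10.50, 10.40 and 10.37 at P7 and 9.33, 9.40 and 9.67 in adults, with a difference of -0.96 ± 0.17 (adjusted p = 0.00038); the difference between the regions was -0.12 ± 0.23 (adjusted p = 0.974). Atp5a1, the alpha subunit, differed by -0.55 ± 0.13 and -0.98 ± 0.13. Atp5d, the delta subunit of the central stalk, read 9.80, 9.66 and 9.44 in P7 corpus callosum and 8.34, 8.35 and 8.23 in adult corpus callosum (-1.33 ± 0.16, adjusted p = 7.09e-06). In cortex it fell by 0.62 ± 0.16 (adjusted p = 0.0129, but 0.058 without P7 replicate 2). Atp5c1, the gamma subunit that turns within the head, was the exception: it read 7.17, 6.99 and 7.16 at P7 and 6.59, 6.90 and 6.92 in adults in cortex, and differed by -0.30 ± 0.13 and -0.23 ± 0.13 (adjusted p of 0.193 and 0.262).

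In the membrane part of the ATP synthase, 3 genes, Atp5g1, Atp5g2 and Atp5g3, encode the same proton-carrying ring subunit. Atp5g2 read 10.27, 10.64 and 10.63 in P7 cortex and 9.57, 9.71 and 9.62 in adult cortex, the largest fall of all 80 genes in cortex (-0.88 ± 0.13, adjusted p = 0.000179). The corpus callosum arrays gave 10.78, 10.72 and 10.51 at P7 and 9.36, 9.41 and 9.75 in adults (-1.16 ± 0.13, adjusted p = 5.86e-06). Atp5g3 fell with it, by 0.62 ± 0.12 and 0.98 ± 0.12, whereas Atp5g1, below the array median on 15 arrays, differed by -0.15 ± 0.21 and -0.19 ± 0.21 and was not called. In the peripheral stalk, which holds the head still, 3 of 4 genes fell in both regions. Atp5h read 10.01, 9.90 and 9.66 in P7 corpus callosum and 8.41, 8.47 and 8.81 in adult corpus callosum (-1.30 ± 0.13, adjusted p = 1.32e-06), and in cortex it fell by 0.60 ± 0.13 (adjusted p = 0.00468). A second probe set of Atp5h went the other way without passing the test (0.33 in corpus callosum and 0.31 in cortex). The mean of its probe sets gave -0.48 in corpus callosum (adjusted p = 0.0256) and -0.15 in cortex (adjusted p = 0.657). Among the peripheral stalk genes Atp5pb lost its cortex call without any one of the 6 arrays (adjusted p of 0.0783 to 0.178). Among the small membrane subunits 3 of 5 fell in both regions, Atp5mpl by 0.77 ± 0.17 in cortex and 1.24 ± 0.17 in corpus callosum. In cortex Atp5mpl alone kept its call without P7 replicate 2 or 3 or adult replicate 2 or 3: Atp5k (adjusted p of 0.0708 to 0.176) and Atp5md (0.0894 to 0.136) lost theirs there, and Atp5md also without either replicate 1 (0.123 and 0.0917). Of the 12 genes of the complex called in cortex, 8 kept their call without P7 replicate 2.

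Whether the regions changed differently with age was tested as the adult regional difference minus that at P7. A single gene of the 80 passed, Ndufb7 (-0.93 ± 0.18, adjusted p = 0.0459), among 0.203% of all genes that passed in either direction and 0.198% that passed downward. Its call was lost without any one of the 12 arrays except P7 corpus callosum replicate 3 (adjusted p of 0.0548 to 0.137 for the other 11), in the fit of these groups alone (0.111) and after a further quantile normalization (0.168). Of the 80 differences 73 lay below 0, with a median of -0.35 against 0.01 over all genes. Bright genes leaned the same way: in the upper quartile of level 62.8% lay below 0, with a median of -0.08. Other large values were those of Cox7a1 (-1.07 ± 0.27, adjusted p = 0.155) and, chosen after their values were seen, Ndufb6 (-0.89 ± 0.22, adjusted p = 0.145) and Uqcrb (-0.69 ± 0.17, adjusted p = 0.148), none of which passed. Ndufb6, an accessory subunit of complex I, differed by -0.11 ± 0.15 in cortex and -1.004 ± 0.15 in corpus callosum. Uqcrb, a small subunit of complex III, read 9.72, 9.78 and 9.89 at P7 and 9.81, 9.61 and 9.77 in adults in cortex, groups that overlapped. Levels in corpus callosum were 10.13, 10.08 and 10.07 at P7 and 9.16, 9.55 and 9.31 in adults, groups that did not. Against P3 in place of P7, 0 of the 80 passed, against 0.18% of all genes (limma). An unadjusted p under 0.05 was reached by 28 of the 80 (35%) and by 13.7% of all genes. The median was -0.30, and -0.17 after a further quantile normalization. Over all genes it was -0.0004, and over the upper quartile of level -0.17, where 72.9% of genes lay below 0.

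At a given age the regions differed by small amounts. At P3, 1 of the 80 genes was higher in corpus callosum and 0 lower, against 0.352% of all genes that were higher and 0.153% that were lower. It was Ndufa6, an accessory subunit of complex I, which read 10.21, 10.19 and 9.92 in corpus callosum and 9.65, 9.42 and 9.53 in cortex (0.57 ± 0.12, adjusted p = 0.0384). The groups did not overlap, yet the call was lost without any one cortex array or corpus callosum replicate 1 or 2 (adjusted p of 0.075 to 0.134), in the fit of these groups alone (0.264) and after a further quantile normalization (0.142). Cox7a1 had a larger difference (0.78 ± 0.19, adjusted p = 0.0728), with 6.55, 6.69 and 6.67 in corpus callosum and 6.32, 5.81 and 5.46 in cortex. Of the 80 differences 65 (81.2%) lay above 0, against 51.9% of all genes. In the upper quartile of level 35.2% of genes lay below 0. The median was 0.16 against 0.01 over all genes and 0.08 over the upper quartile of level. A further quantile normalization lowered the 0.16 to 0.065. For 26 genes all corpus callosum arrays lay above all cortex arrays, as they did for 9.17% of all genes. Of the marker lists, 2 of 8 neuron markers were lower in corpus callosum at P3 (array means of 5.85 to 6.45 against 6.59 to 6.90 in cortex), while 2 of 6 border macrophage markers (6.89 to 7.39 against 6.31 to 7.00) and 1 of 6 monocyte markers (5.92 to 7.00 against 5.83 to 5.96) were higher. The monocyte marker means were 5.92, 5.96 and 7.00 on corpus callosum replicates 1, 2 and 3. Replicate 3 also had the highest mean of the 7 neutrophil markers at P3 (6.07). Of those 7, 0 were called and 4 were below the array median on every array. The part of all these markers in the regional difference was not tested.

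At P7, 0 of the 80 genes passed the test between the regions, against 0.451% of all genes (limma). An unadjusted p under 0.05 was reached by 21 (26.2%) and by 6.88% of all genes, and 75 of the 80 differences lay above 0. The median was 0.19 against 0.00 over all genes and -0.02 over the upper quartile of level, and for 32 genes the corpus callosum arrays lay entirely above those of cortex (8.97% of all genes). The 3 largest differences were those of Cox7a1 (0.83 ± 0.19, adjusted p = 0.0644), Cox6a2 (0.49 ± 0.16, adjusted p = 0.318) and Ndufa1 (0.49 ± 0.13, adjusted p = 0.165). Among the marker lists 1 of 6 border macrophage markers was higher in corpus callosum at P7 (array means of 7.08 to 7.32 against 6.71 to 7.14). Of 7 neutrophil markers 0 were called, but all 7 differences lay above 0 (median of 0.24). Of these markers, 4 (Camp, Ltf, Retnlg and Mmp8) were below the array median on every array, so their differences cannot be told from background. The mean level of all 7 was 4.60 and 4.64 on corpus callosum replicates 2 and 3 and 4.45 to 4.64 in cortex. It was 5.66 on corpus callosum replicate 1, which also had the highest mean of the subunit genes (0.36). The median over the 80 genes was 0.14 without that replicate. The part of these markers was not tested.

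In adults 0 of the 80 genes passed between the regions, against 0.00451% of all genes (limma). An unadjusted p under 0.05 was reached by 15 (18.8%) and by 8.51% of all genes. Of the differences 64 lay below 0, and 20% lay above 0 against 51.8% of all genes. Bright genes leaned the same way: 72.2% of those in the upper quartile of level lay below 0. The median was -0.15 against 0.01 over all genes and -0.09 over the upper quartile of level. It was -0.087 without adult corpus callosum replicate 1 and -0.077 after a further quantile normalization. For 19 genes the corpus callosum arrays lay entirely below those of cortex (6.07% of all genes). The largest were those of Ndufb7 (-0.60 ± 0.13, adjusted p = 0.242), Ndufb11 (-0.52 ± 0.25, adjusted p = 0.591) and Ndufb6 (-0.48 ± 0.15, adjusted p = 0.447), 3 accessory subunits of the membrane arm of complex I. No marker list had a called gene in this comparison.

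**Figure D5:**
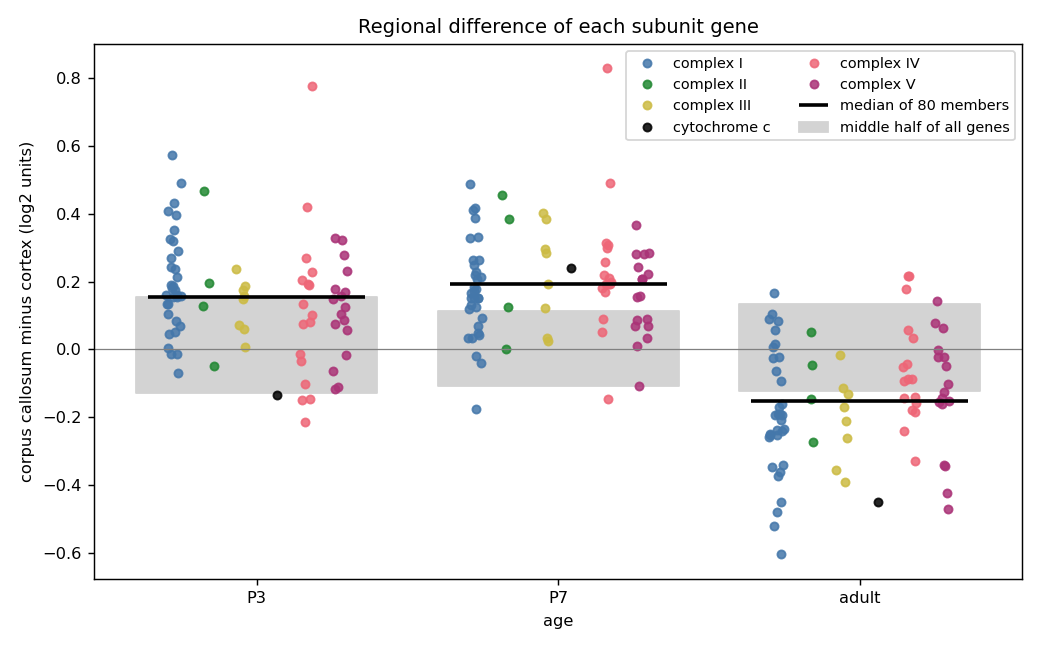
Corpus callosum minus cortex difference of each of the 80 genes (points, coloured by complex) at P3, P7 and in adults, in log2 units; bars are medians of the 80 genes and grey boxes span the quartiles of all genes tested. The medians are 0.16 at P3, 0.19 at P7 and -0.15 in adults, and Cox7a1 is the uppermost point at P3 (0.78) and P7 (0.83).

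Between P3 and P7 little was detected, in a comparison where age and array set cannot be told apart. In cortex 0 of the 80 genes passed (limma), against 0.884% of all genes, and 4 (5%) had an unadjusted p under 0.05, against 13% of all genes. The median, P7 minus P3, was -0.04, and -0.12 after a further quantile normalization. The 3 largest differences were those of Ndufs5 (-0.39 ± 0.18), Cyc1 (-0.36 ± 0.16) and Cox7a2 (-0.35 ± 0.13). In corpus callosum 0 passed (limma), against 0.739% of all genes, and 10 (12.5%) had an unadjusted p under 0.05, against 14.2% of all genes. The median was -0.03, and 0.023 without P7 replicate 3. The largest there were those of Ndufb11 (-0.62 ± 0.25), Cox7b (0.46 ± 0.13) and Ndufa6 (-0.46 ± 0.12, adjusted p = 0.0795). Over the alternatives the difference of Cox7b, a gene with 2 probe sets, ranged from 0.073 to 0.54 (adjusted p of 0.054 to 0.853). The change of the regional difference from P3 to P7 called 0 of the 80 genes and 0% of all genes, with a median of 0.04 over the 80 that became -0.032 without P7 corpus callosum replicate 1; 4 (5%) had an unadjusted p under 0.05, against 5.68% of all genes.

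Genes that serve the same machinery outside the nuclear-encoded subunits were described from lists. Beside their counts from P7 to the adult stand the shares of all genes, 6.15% lower in cortex and 10.7% in corpus callosum. In the upper quartile of level these shares were 15.4% and 28.1%. Higher in adults were 4.05% of all genes in cortex and 6.56% in corpus callosum. The 10 measured subunit transcripts of mitochondrial DNA showed no called change from P7 to the adult in either region. Their medians were -0.07 in cortex and -0.03 in corpus callosum. Their group means lay between 11.78 and 12.75 log2 units, near the upper end of the scale, where a change may be compressed. Of 44 assembly factors, 2 were lower in adult cortex (Uqcc2 and Coa5), and 9 were lower and 1 higher in adult corpus callosum (Coa5 at -1.24 ± 0.15 and Coa3 at -1.07 ± 0.24, against Ndufaf7 at 0.72 ± 0.17). Of 15 genes of the tricarboxylic acid cycle and pyruvate dehydrogenase, 3 were lower in cortex (Idh3a at -0.97 ± 0.20 and Suclg2 at -0.63 ± 0.15 among them) and 10 in corpus callosum, led by Mdh2 (-0.92 ± 0.15) and Pdha1 (-0.86 ± 0.17). Of 14 carriers, import proteins and pores, 6 were lower in cortex and 12 in corpus callosum, where the chaperones Hspd1 (-1.21 ± 0.16) and Hspa9 (-1.09 ± 0.13) had the largest differences. Among 14 regulators of mitochondrial gene expression, Nrf1, Gabpa, Tfam and Ppargc1a included, 0 were called in cortex and 1 in corpus callosum, Lrpprc (-0.45 ± 0.12), which stabilises mitochondrial transcripts. Atpif1, the inhibitor of the ATP synthase, was lower in both regions (-0.66 ± 0.12 and -0.69 ± 0.12). None of these genes was called between the regions at any age or between P3 and P7.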

How the data were processed

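Total RNA was amplified (Ovation PicoSL WTA System V2), biotin-labelled (Encore Biotin Module) and hybridised to Affymetrix arrays, per the labels' protocols. The authors deposited log2 levels. The submitters' processing notes name RMA (robust multi-array average). It makes the arrays more alike, hides any change in the total RNA of a cell and compresses large differences. The arrays still differed in spread: the SD over genes was 1.742 to 1.751 on P7 corpus callosum arrays and 1.603 to 1.695 on adult ones. In cortex it was 1.719 to 1.767 at P7 and 1.629 to 1.744 in adults. The part of this spread in the fall from P7 to the adult was not tested. No source gives the log base, which was taken as 2 (values of 0.87 to 13.78). Of 41345 probe sets, 23521 had 1 gene symbol in GEO's platform annotation, 1814 several and 16010 none. The 22180 genes were tested with limma 3.58.1 (R 4.3.3; lmFit, contrasts.fit and eBayes) on all 18 arrays, with a mean per group, 12 residual degrees of freedom, 10 two-sided comparisons, Benjamini-Hochberg adjustment over all genes and a threshold of 0.05. The fit was tested on simulated data.

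Differences are the first group minus the second, ± SE; 3 arrays per group limit the precision. Levels of different subunit genes were not compared with each other. The means of the marker lists, the array medians and the split of genes by level do set different probe sets side by side. Of the 80 genes, 10 had several probe sets. The members, lists and subgroups were chosen with earlier results of these data known. Genes named were, per complex and direction, up to 4 called genes with the largest difference (where none was called, the 3 largest of the comparison), a fixed panel of subunits, and up to 2 called genes per other list. Replicate numbers were not used as pairs: same-numbered arrays of the regions correlated by 0.016 to 0.300. At P3 these correlations were 0.026, 0.016 and 0.109, against at most -0.011, 0.086 and 0.00086 with arrays of other numbers. At P7 they were 0.131, 0.078 and 0.049, against at most -0.075, 0.048 and 0.012. In adults they were 0.300, 0.062 and 0.245, against at most -0.052, 0.198 and 0.013. Whether same-numbered arrays shared animals or a batch was not tested. Alternatives were a further quantile normalization, a filter on dim genes, an intensity trend, the compared arrays alone, the mean of probe sets, array weights, a replicate block and leaving out each array. Promoters are RefSeq's, GRCm38.p6.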

Additional observations from a re-analysis of the deposited data

Results flagged for a closer look

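Ndufb7, an accessory subunit of complex I, drew attention because its regional difference changed between ages by a direct test. The difference of corpus callosum minus cortex differed by -0.93 log2 units between adults and P7, adults minus P7 (limma, adjusted p = 0.0459). All 3 corpus callosum arrays lay above those of cortex at P7 (9.33, 8.94 and 8.88 against 8.81, 8.65 and 8.70) and below them in adults (7.68, 7.59 and 7.71 against 8.48, 8.19 and 8.12). The adjusted p over the alternatives ranged from 0.0145 to 0.168. No explanation was tested.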

How the results depend on the processing

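The fall from P7 to the adult kept its direction under each alternative run, with cortex medians of -0.39 to -0.31 and corpus callosum medians of -0.86 to -0.61; 19 of the 32 genes called in cortex and 49 of the 57 in corpus callosum were called under all of them. Without 1 array at a time, 23 to 28 genes were called in cortex (medians of -0.39 to -0.31) and 50 to 57 in corpus callosum (-0.86 to -0.67).

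A further quantile normalization of the 18 arrays moved the medians from -0.37 to -0.31 in cortex (26 genes called) and from -0.75 to -0.61 in corpus callosum (50 called). It moved the regional medians to 0.065 at P3 and -0.077 in adults, that of P7 against P3 in cortex to -0.12, and those of the change of the regional difference to 0.092 (P7 against P3), -0.27 (adults against P7) and -0.17 (adults against P3). Counts near 0 moved by a few genes. At P3 the regional count of 1 became 0 after quantile normalization, with the compared arrays alone and with the replicate block, and 2 with the filter on dim genes. At P7 the regional count became 1 with the filter, the trend and array weights. For P7 against P3 in corpus callosum it became 2 with the filter, 3 with the trend and 1 with array weights. The change of the regional difference in adults called 0 genes against P7 after quantile normalization, with the compared arrays alone and with the replicate block, 2 with the filter and 3 with the trend, and against P3 it called 2 with the filter and 1 with the trend. The cause was not tested. The replicate number does not mark pairs in the labels, and not every same-numbered pair of arrays correlated above 0.1, so the replicate block (adjusted p of 0.0666 for Ndufa6 at P3 and 0.0847 for the change of the regional difference of Ndufb7) is given only here.

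Without 1 array at a time, the counts and medians were 0 to 1 and 0.14 to 0.17 between the regions at P3, 0 to 1 and 0.14 to 0.23 at P7, and 0 and -0.20 to -0.087 in adults. For P7 against P3 they were 0 and -0.05 to -0.01 in cortex, and 0 to 2 and -0.061 to 0.023 in corpus callosum, where the median turned to 0.023 without P7 replicate 3. For the change of the regional difference they were 0 and -0.032 to 0.089 (P7 against P3, turned to -0.032 without P7 corpus callosum replicate 1), 0 to 1 and -0.40 to -0.28 (adults against P7), and 0 to 1 and -0.36 to -0.26 (adults against P3). For single genes, 1383 of 1516 values under the alternatives kept their direction and side of the threshold, 120 fell short of it, 13 newly passed it and 0 changed direction. Genes near the array medians, such as Cox7a1 in adults, give the least certain differences. A planned comparison of protein forms was not run.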
